A study of Oryza sativa with 12 samples.

Results

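A set of 5 regulators of crown root initiation in rice (Oryza sativa) was followed through 12 RNA libraries: CRL1 (Os03g0149100), CRL4 (Os03g0666100), CRL5 (Os07g0124700), WOX11 (Os07g0684900) and QHB (Os01g0854500). They were chosen by identifier, as 5 of the 38034 identifiers in the deposited files, of which 31003 are rice locus identifiers. The libraries came from root and shoot of Nipponbare, the wild type (WT), and of 1 mutant line, osspt5-1#12, with 3 libraries in each of the 4 groups. SPT5 proteins are elongation factors of RNA polymerase II, and the study asked what loss of OsSPT5-1 does to gene expression during vegetative growth. All groups grew under the same conditions, with a light period of 15 h at 28 °C, a dark period of 9 h at 24 °C and 70% humidity. The labels give neither the nature of the mutation nor plant age, and they do not say whether the shoot samples held the stem base. They number the replicates without saying that these came from different plants. The p-values below therefore rest on the variation among the libraries at hand, some of which may be technical.

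Crown roots are the shoot-borne roots that make up most of the root system of a cereal, and they start from cells at the nodes of the stem base. Auxin sets off this program: polar auxin transport and auxin response factors switch on transcription factors that found the new root, while cytokinin signalling restrains it. CRL4, a guanine nucleotide exchange factor for ARF proteins that is related to GNOM of Arabidopsis, acts on membrane traffic and the placing of PIN auxin efflux carriers. CRL1, a LOB-domain transcription factor, responds to auxin, and rice crl1 mutants form no crown roots. CRL5, an AP2-type factor, also responds to auxin and raises a type-A repressor of cytokinin signalling. WOX11, a WUSCHEL-related homeobox factor, promotes crown root emergence and growth, and QHB, of the same family, marks the quiescent centre of the root tip.

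Values are FPKM, fragments per kilobase of a gene and relative to the fragments counted in its library, so levels can be set side by side between genes. Whole reads behind them were recovered from the steps of the values. Libraries held between 10118483 and 15750501 reads, at which 3 reads of a 1 kb gene make 0.19 to 0.296 FPKM. The genes lie on chromosome 3 (CRL1 and CRL4), 7 (CRL5 and WOX11) and 1 (QHB), as their identifiers state. Their recovered lengths were 780 bases for CRL1, 5415 for CRL4, 1434 for CRL5, 1282 for WOX11 and 1179 for QHB. Summed over 12 libraries, CRL4 had 10878 reads, WOX11 1790, QHB 145, CRL1 107 and CRL5 78, so precision differs widely between them. Replicates matched least in mutant root (Pearson's r across genes 0.877 to 0.92) and in WT shoot (0.908 to 0.951), and more closely in WT root (0.961 to 0.965) and mutant shoot (0.962 to 0.971). CRL1, CRL4 and WOX11 passed the filter for testing, 1 FPKM or more in at least 3 libraries. QHB reached 1 FPKM in 2 libraries and CRL5 in 1, so both were left out of that fit and their tests come from the fit of all 38034 rows.

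In WT root, WOX11 was the most abundant of the 5 at 22.4 ± 3.75 FPKM (SD, n = 3), followed by CRL4 at 11.4 ± 0.459. CRL1 at 1.69 ± 0.383 and QHB at 1.18 ± 0.804 came next and overlapped each other, and CRL5 was at 0. In WT shoot, CRL4 led at 9.97 ± 2.50 FPKM, and WOX11 (1.31 ± 1.12) and CRL5 (0.446 ± 0.438) overlapped. QHB, at 0.0935 ± 0.117, overlapped CRL5, and CRL1 had no read there. The mutant shoot had nearly the same order, CRL4 at 13.8 ± 1.31, WOX11 at 4.38 ± 2.32, CRL5 at 0.912 ± 0.220, CRL1 at 0.200 ± 0.102 and QHB at 0.130 ± 0.0527, with the last pair overlapping. In mutant root the order of the first pair turned: CRL4 stood at 14.0 ± 4.70 FPKM and WOX11 at 8.11 ± 8.29, with overlapping libraries. QHB (1.74 ± 1.49) and CRL1 (1.52 ± 0.476) followed, and they overlapped each other and the range of WOX11.

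**Figure D1:**
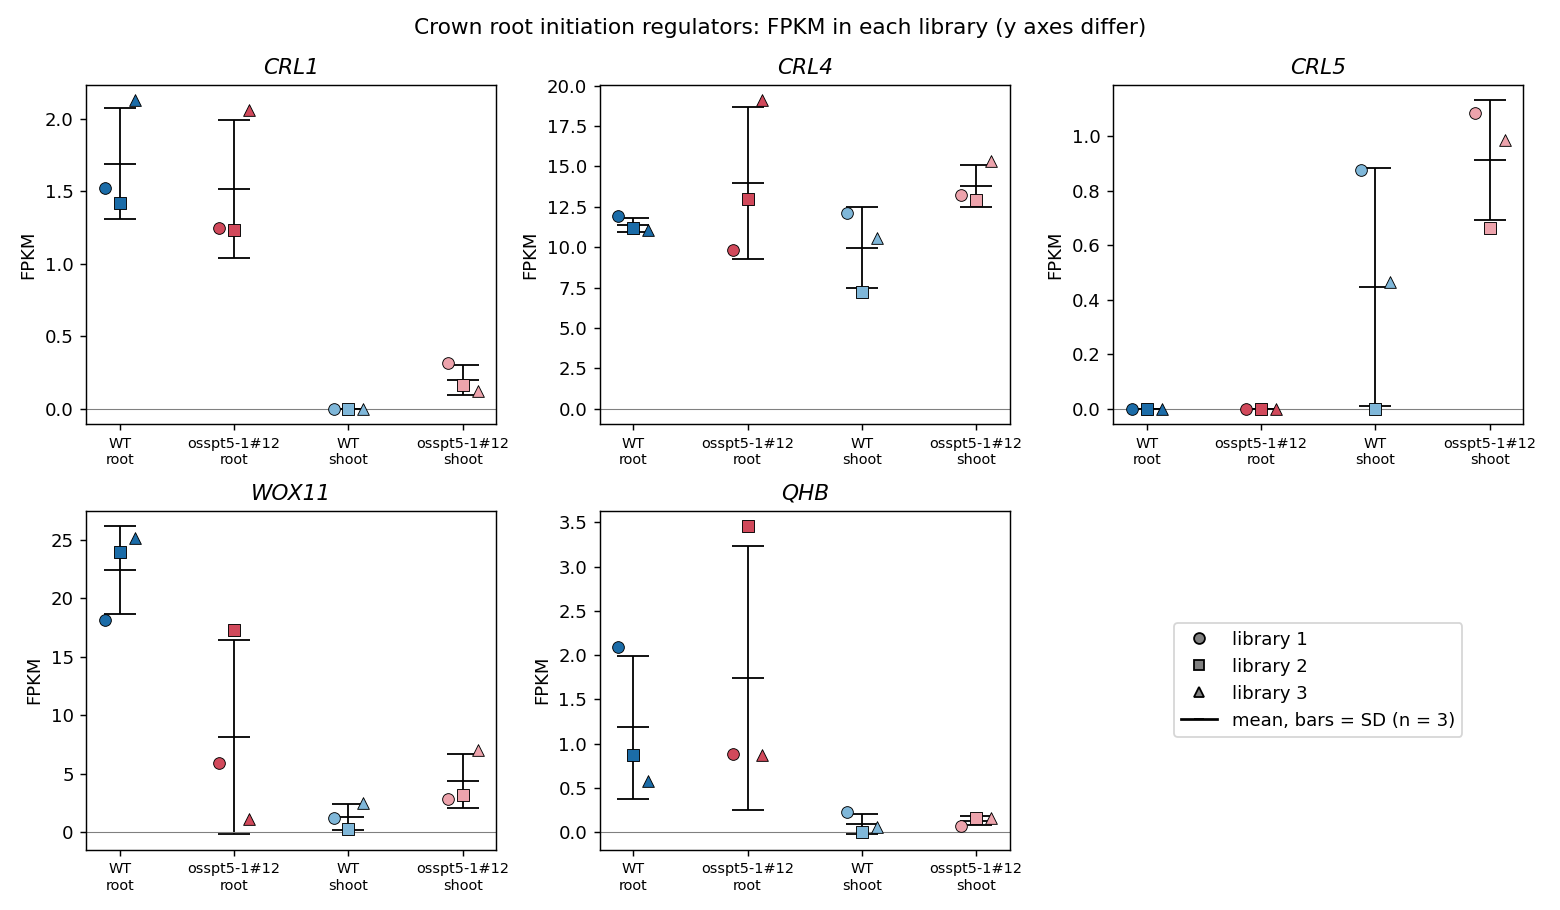
FPKM of CRL1, CRL4, CRL5, WOX11 and QHB (y axes, each with its own range) in the 3 libraries of each of 4 groups (x axis). Symbols are libraries, and horizontal lines and bars are means and SD. WOX11 lies between 18.1 and 25.1 FPKM in WT root and spreads from 1.16 to 17.3 in osspt5-1#12 root, while CRL1 is at 0 in WT shoot and CRL5 at 0 in both root groups.

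CRL4, the gene of auxin carrier placement, was expressed at a similar level in both organs. Its WT root libraries had 11.9, 11.2 and 11.04 FPKM and its mutant root libraries 9.84, 13.01 and 19.1. The mutant root values thus lay on both sides of WT, with library 3 highest. CRL4 had 12.1, 7.21 and 10.6 FPKM in WT shoot and 13.2, 12.9 and 15.3 in mutant shoot. Each mutant shoot library was above each WT shoot library here, which held for 23.9% of the 25337 rows tested. The mean was 1.386-fold higher in mutant shoot, a log2 fold change of 0.46 (SE 0.239, 95% interval −0.07 to 0.98, limma adjusted p = 0.264), so it did not pass the test. WT shoot library 2 was the lowest shoot value of CRL4, and also of WOX11, CRL5 and QHB. Without that library the log2 fold change of CRL4 was 0.26. In root the log2 fold change was 0.23 (95% interval −0.30 to 0.76, limma adjusted p = 0.61), and between WT root and WT shoot it was 0.20 (95% interval −0.33 to 0.73, limma adjusted p = 0.558).

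CRL1, the auxin-responsive LOB-domain factor, was found mainly in root in both genotypes. Its WT root libraries had 1.52, 1.42 and 2.13 FPKM, from 12, 15 and 22 reads. Its mutant root libraries had 1.25, 1.23 and 2.06 FPKM, from 14, 13 and 25 reads. The root groups overlapped, and library 3 was highest in each. The log2 fold change in root was −0.10 (SE 0.196, 95% interval −0.54 to 0.33, limma adjusted p = 0.801).

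In shoot, CRL1 had 0 reads in the 3 WT libraries and 3, 2 and 1 reads in mutant libraries 1 to 3, that is 0.315, 0.163 and 0.121 FPKM. The mutant mean was 2.34-fold above a floor of 3 reads over the WT shoot group, 0.0853 FPKM. The floor covers counting error of the WT group only. The error of the 6 mutant reads is left out, so 2.34 is not a lower bound. The log2 fold change was 0.26 (95% interval −0.17 to 0.69, limma adjusted p = 0.446). With limma-voom on the recovered reads, an alternative chosen after the data were seen, the difference passed the test (adjusted p = 0.0145), and over all settings tried the adjusted p ran from 0.0145 to 0.718. A call that rests on 6 reads depends on how values near 0 are treated.

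The root preference of CRL1 passed the test in both genotypes. CRL1 met the filter through its root libraries alone. With no filter the difference also passed (limma adjusted p = 0.000137 in WT and 0.00124 in the mutant). WT root was 19.82-fold above a floor of 3 reads over the WT shoot group, which leaves out the counting error of the root reads. The log2 fold change between WT root and WT shoot was 1.42 (SE 0.196, limma adjusted p = 0.000223). Mutant root was 7.594-fold above mutant shoot (log2 fold change 1.06, limma adjusted p = 0.00213). In both comparisons each root library was above each shoot library, as for 30.2% of rows tested in WT and 19.2% in the mutant. The difference of the CRL1 mutant effects, root minus shoot, was −0.36 on the log2(FPKM + 1) scale (95% interval −0.97 to 0.25, limma adjusted p = 0.574). Its size depends on how values near 0 are treated: it was −1.70 with a pseudocount of 0.1 (unadjusted p = 0.0203, adjusted p = 0.214) and −2.66 by limma-voom (unadjusted p = 0.00175, adjusted p = 0.0741). None of these passed the test.

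CRL5, the AP2-type factor, was read in shoot and not in root. The root files list no row for it, and a missing row was set to 0. No row that they do list is at 0 in all 6 root libraries. A count of 3 reads over each root group would make 0.0567 FPKM in WT and 0.0482 in the mutant. In WT shoot CRL5 had 0.876, 0 and 0.464 FPKM, from 19, 0 and 10 reads. In mutant shoot it had 1.09, 0.664 and 0.986 FPKM, from 19, 15 and 15 reads. The shoot groups overlapped, and WT library 2 was the one shoot library without a read.

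Mutant shoot was at least 18.92-fold and WT shoot at least 7.874-fold above the root group of its own genotype for CRL5. When tissue names were exchanged within each genotype, the mean difference of root minus shoot, −0.71 on the log2(FPKM + 1) scale, had p = 0.02 (exact permutation test, two-sided, 400 arrangements; p = 0.02 adjusted over CRL5 and QHB). Reads were found in 5 of 6 shoot libraries and in 0 of 6 root libraries. In the fit of all rows the root minus shoot difference passed in the mutant (log2 fold change −0.93, limma adjusted p = 0.00603). In WT it did not (−0.49, limma adjusted p = 0.0929), except without WT shoot library 2 (−0.73, limma adjusted p = 0.00314). Between mutant and WT shoot the mean was 2.042-fold higher in the mutant, with a log2 fold change of 0.44 (95% interval 0.02 to 0.86) and a limma adjusted p of 0.217. Without WT shoot library 1 this difference passed (log2 fold change 0.65, limma adjusted p = 0.0349). The root libraries, all at 0, lower the estimate of the spread that this test uses.

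WOX11, the homeobox factor of crown root emergence, had a lower mean in mutant root and a higher mean in mutant shoot than in WT, and neither difference passed the test with all libraries. Its WT root libraries had 18.1, 23.9 and 25.1 FPKM, from 235, 415 and 427 reads. Its mutant root libraries had 5.90, 17.3 and 1.16 FPKM, from 109, 299 and 23 reads. Each mutant root library was below each WT root library, by a small margin for mutant library 2 and by a wide one for library 3. Such a separation, with WT above the mutant, was seen for 11.6% of the rows tested.

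The mean of WOX11 was 2.76-fold lower in mutant root than in WT root. The log2 fold change was −1.84 (SE 0.657, 95% interval −3.29 to −0.39), with an unadjusted p of 0.0176 and a limma adjusted p of 0.118, so the difference did not pass the test. Of CRL1, CRL4 and WOX11, 0 passed in this comparison by limma-trend and 0 by limma-voom, against 7% of all rows tested (limma-trend), and 1 had an unadjusted p under 0.05 by either tool. Single mutant libraries set the size: the log2 fold change was −2.59 without mutant root library 2 (limma adjusted p = 0.0293) and −1.05 without mutant root library 3 (limma adjusted p = 0.239). Over all settings tried the adjusted p ran from 0.0293 to 0.307.

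**Figure D2:**
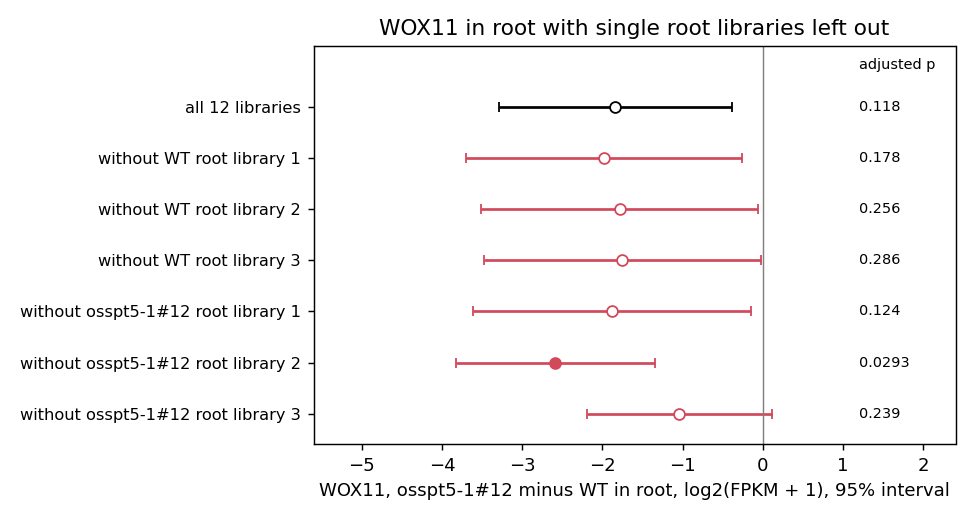
Log2 fold change of WOX11 (x axis, log2(FPKM + 1) scale, points with 95% limma intervals), osspt5-1#12 minus WT in root, with all 12 libraries and without each of the 6 root libraries in turn. The filled point has an adjusted p under 0.05, and the numbers at the right are adjusted p-values. The value runs from −2.59 without mutant library 2 to −1.05 without mutant library 3.

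The spread of WOX11 within mutant root was wide for its level. Its highest library was 14.95-fold above its lowest, and 4.11% of 7323 rows with a mean within 2-fold of it spread as far. The median of those rows was 2.16-fold. In the same libraries CRL4 spread 1.941-fold and CRL1 1.672-fold, and library 3, the lowest for WOX11, was the highest for both. The mutant root libraries also matched each other least over all genes, and the part of this in the WOX11 result was not tested.

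In shoot, WOX11 lay the other way. WT shoot libraries had 1.19, 0.261 and 2.49 FPKM, from 23, 5 and 48 reads, and mutant shoot libraries had 2.88, 3.22 and 7.06 FPKM, from 45, 65 and 96 reads. Each mutant library was above each WT library. The mean was 3.341-fold higher in the mutant, with a log2 fold change of 1.26 (SE 0.657, 95% interval −0.19 to 2.71, limma adjusted p = 0.264). Of CRL1, CRL4 and WOX11, 0 passed in this comparison by limma-trend, and 0 had an unadjusted p under 0.05, against 9.5% of rows called. By limma-voom 1 passed, the CRL1 difference given above. Without WT shoot library 2 the log2 fold change of WOX11 was 0.88.

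Each of the 3 genes in the fit was thus higher in every mutant shoot library than in every WT shoot library, as were 23.9% of all rows tested. For CRL1 this rests on 3, 2 and 1 reads in the mutant against 0 in WT, and CRL1 was in the fit through its root libraries alone. CRL5 and QHB, outside that fit, overlapped between genotypes in shoot. All rows together were shifted upward in mutant shoot: their median log2 fold change was 0.13 as deposited and −0.01 with median-ratio factors. After division by those factors, CRL4 had 12.3, 8.70 and 11.4 in WT shoot and 12.7, 12.9 and 14.3 in mutant shoot. WOX11 had 1.21, 0.315 and 2.68 in WT shoot and 2.77, 3.21 and 6.59 in mutant shoot. The groups of each gene lay apart by a narrow margin only. The share of rows that separate after this scaling was not counted. In these bulk samples, a change in the number of cells of a type and a change in RNA per cell cannot be told apart.

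WOX11 separated root from shoot in WT but not in the mutant. WT root was 17.07-fold above WT shoot (log2 fold change 3.45, SE 0.657, 95% interval 2.00 to 4.90, limma adjusted p = 0.00192). Mutant root was 1.851-fold above mutant shoot, with overlapping libraries (log2 fold change 0.35, 95% interval −1.10 to 1.80, limma adjusted p = 0.728). Mutant root library 3, with 1.16 FPKM, was below all 3 mutant shoot libraries, and without it the log2 fold change was 1.14 (limma adjusted p = 0.113). WOX11 and CRL1 made 2 of 3 tested genes called between WT root and WT shoot, against 34.3% of rows. Between mutant root and mutant shoot 1 of 3 was called, CRL1, against 30.6% of rows. CRL1 met the filter through its root libraries alone, so its place in these counts depended on the organ where it was high. Without the filter 2 of 5 genes were called in WT, CRL1 and WOX11, against 23.8% of rows. In the mutant 3 of 5 were called, CRL1, QHB and, higher in shoot, CRL5, against 20.6%.

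The difference between genotypes in this root preference was tested as the mutant effect in root minus that in shoot. For WOX11 it was −3.10 on the log2 scale (SE 0.929, 95% interval −5.15 to −1.05), with an unadjusted p of 0.00682 and a limma adjusted p of 0.108. Of CRL1, CRL4 and WOX11, 0 passed this test by limma-trend and 0 by limma-voom, against 3.52% of rows (limma-trend), and 1 (WOX11) and 2 (WOX11 and CRL1) had an unadjusted p under 0.05 by these tools. Without mutant root library 2 the WOX11 value was −3.85 (limma adjusted p = 0.026), and over all settings tried the adjusted p ran from 0.026 to 0.235. For CRL4 the same difference was −0.23 (95% interval −0.97 to 0.52, limma adjusted p = 0.794).

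**Figure D3:**
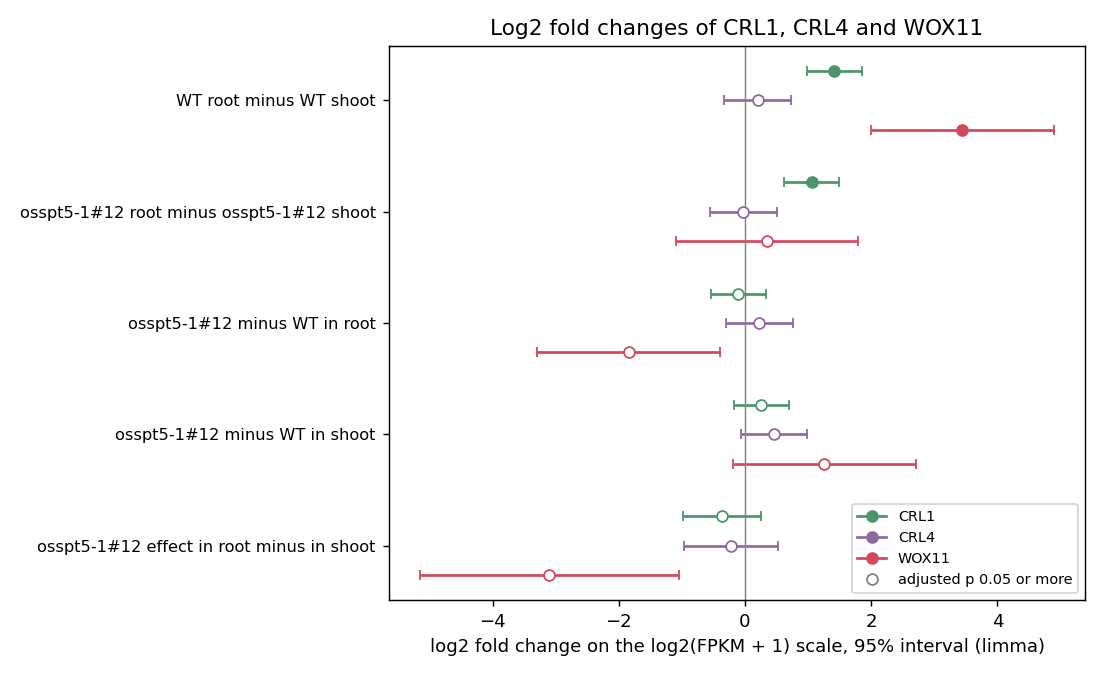
Log2 fold changes on the log2(FPKM + 1) scale (x axis, points with 95% limma intervals) of CRL1, CRL4 and WOX11 in 5 comparisons (y axis). Filled points have an adjusted p under 0.05: CRL1 and WOX11 between WT root and WT shoot, and CRL1 between osspt5-1#12 root and shoot. The 2 leftmost WOX11 values, −3.10 and −1.84, have adjusted p-values of 0.108 and 0.118.

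A ratio between a pair of genes within a library does not depend on library scaling. The ratio of WOX11 to CRL4 was 1.52, 2.14 and 2.28 in WT root and 0.6003, 1.33 and 0.0605 in mutant root. The root groups did not overlap, and WOX11 exceeded CRL4 in every WT root library but in mutant root only in library 2. In shoot the ratio was 0.0980, 0.0362 and 0.235 in WT and 0.218, 0.249 and 0.461 in the mutant, so these groups overlapped. The ratio of WOX11 to CRL1 was 11.9, 16.8 and 11.8 in WT root and 4.74, 14.0 and 0.560 in mutant root. These overlapped through mutant library 2, and in mutant root library 3 WOX11 was below CRL1. The ratio of CRL4 to CRL1 was 7.83, 7.87 and 5.19 in WT root and 7.89, 10.5 and 9.25 in mutant root. These groups did not overlap either, with mutant library 1 just above the highest WT library. CRL1 had only 12 to 25 reads in each root library, so so small a margin carries no weight. How many other pairs of genes separate in root was not counted.

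**Figure D4:**
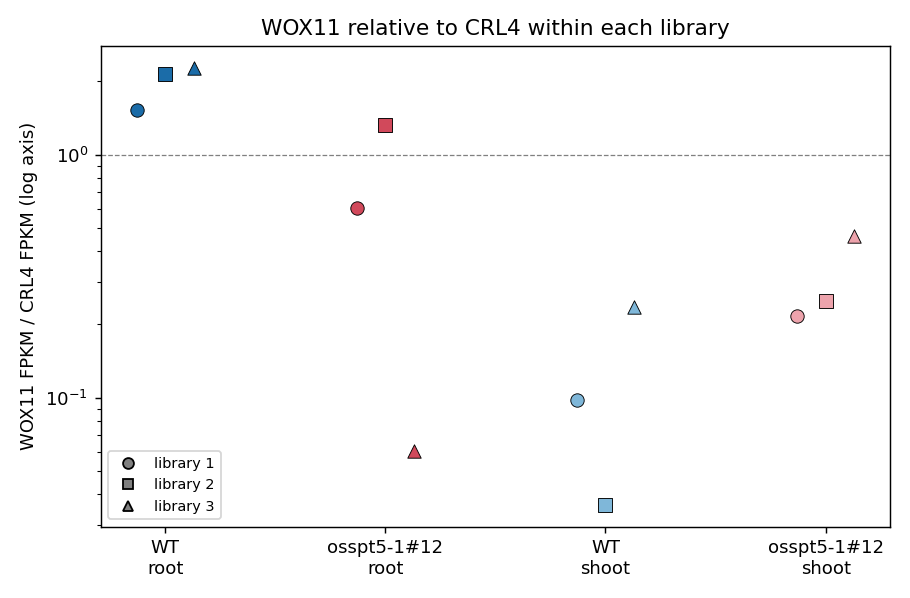
WOX11 FPKM divided by CRL4 FPKM (y axis, log scale) within each library, for 4 groups (x axis). Symbols are libraries and the dashed line marks a ratio of 1. WT root lies between 1.52 and 2.28, osspt5-1#12 root between 0.0605 and 1.33, and the shoot groups overlap.

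QHB, the homeobox gene of the quiescent centre, was a low root transcript in both genotypes. Its WT root libraries had 2.096, 0.878 and 0.576 FPKM, from 25, 14 and 9 reads, and its mutant root libraries 0.883, 3.46 and 0.874 FPKM, from 15, 55 and 16 reads. The root groups overlapped, and mutant library 2 was the highest of all. The log2 fold change in root was 0.26 (95% interval −0.50 to 1.02, limma adjusted p = 0.76), and −0.16 without mutant root library 2. That library was also the highest mutant root library for WOX11.

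In shoot QHB had 4, 0 and 1 reads in WT and 1, 3 and 2 in the mutant, at most 0.224 FPKM. The log2 fold change in shoot was 0.05 (95% interval −0.70 to 0.81, limma adjusted p = 1). Each root library was above each shoot library of its genotype, with means 12.65-fold higher in WT and 13.34-fold higher in the mutant. Of the 25337 rows that passed the filter, which QHB did not, 30.2% separated this way in WT and 19.2% in the mutant. The share over all rows was not computed. The mean difference of root minus shoot within genotypes was 1.05 on the log2 scale (exact permutation test, two-sided, p = 0.005, the smallest that 400 arrangements can give; p = 0.01 adjusted over CRL5 and QHB). In the fit of all rows the mutant root against shoot difference passed (log2 fold change 1.15, limma adjusted p = 0.0372) and the WT one did not (0.94, limma adjusted p = 0.0727), except without mutant root library 2 (limma adjusted p = 0.0129) or with a pseudocount of 0.1 (2.72, limma adjusted p = 0.0139). The former missed the threshold without any 1 mutant shoot library (adjusted p from 0.0918 to 0.108), without mutant root library 2 (0.0738), and without WT root library 2 or any 1 WT shoot library (0.0532 to 0.059). In that fit 4.44% of rows were called for the mutant in root, 6.71% in shoot, 23.8% between WT root and shoot and 20.6% between mutant root and shoot.

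Placed among all rows with a read in the same library, CRL4 was above 58.6% to 74.4% of them. WOX11 was above 73.4% to 80.3% in WT root and above 28.2% to 72.1% in mutant root. In shoot it was above 14.1% to 39.8% in WT and 41.1% to 55.1% in the mutant. CRL1 was above 28.4% to 36.9% in root, and QHB above 18.7% to 44.1%.

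For each of the 5 genes, the locus with the most similar profile of log2(FPKM + 1) over the 12 libraries was taken from 22085 or 22086 tested loci. For CRL1 it was Os11g0133300 (Pearson's r 0.981), for CRL4 Os09g0272300 (0.975), for CRL5 Os10g0550500 (0.9903), for WOX11 Os06g0676000 (0.966) and for QHB Os03g0209400 (0.978). These r values describe 12 libraries that share 2 organs, so the organ difference enters them. Os06g0676000 averaged 61.5 FPKM in WT root, 41.8 in mutant root, 25.1 in WT shoot and 39.4 in mutant shoot, the same order of WT and mutant as WOX11 in each organ. Each locus was picked for its likeness in these same libraries, so a shared order is no separate support. Os11g0133300 averaged 12.8 and 9.97 FPKM in WT and mutant root and 0.106 and 0.458 in WT and mutant shoot. The files do not pair these identifiers with names.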

How the data were processed

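Deposited values were FPKM per gene, 1 file per library, made by the authors, per the file headers. Per the labels' protocols, library preparation took 2 µg of total RNA and a kit that does not mark strand, so overlapping antisense genes cannot be told apart from these genes. Bowtie2 2.2.3, HISAT2 2.1.0, HTSeq 0.6.0 and build IRGSP-1.0 appear, with no role, per the submitters' processing notes. The annotation release is not given in the sources used here. Rows missing from a file were set to 0. Reads were recovered as the smallest whole numbers (tolerance 0.002 reads) that fit a row's values in every library. Reads of a row that share a common factor would thus come out too low. Total depth was set where lengths are most nearly whole, and 98.41% of lengths came out whole to within 0.05 bases.

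Tests used limma 3.58.1 in R 4.3.3 (limma-trend, two-sided, Benjamini-Hochberg adjustment over all rows tested) on log2(FPKM + 1), with 12 libraries in 1 fit and the 25337 rows that reached 1 FPKM in 3 or more libraries. A fold change on that scale understates the change of low genes. The procedure was run on simulated data in which all genes and groups shared the same dispersion, with changes placed only in genes with more reads. That run does not speak to the wider spread of mutant root or to genes with few reads. Fold values in the text are ratios of mean FPKM, or of a mean to the floor of 3 reads where the lower group had no read.

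The genes, lists and tests were chosen with earlier results of these data known. All 5 genes are named, and 1 most similar locus for each. The reference table (39387 entries) matched 1 of the 38034 identifiers, so lists of other crown root genes and of organ markers were not analysed here, nor was OsSPT5-1, and organ and genotype labels were not checked on such genes. Gene names come with the chosen identifiers. Deviations of libraries with the same number correlated at −0.274 to 0.141 between genotypes, and nothing in the labels pairs them.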

Additional observations from a re-analysis of the deposited data

Results flagged for a closer look

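WOX11 was singled out because its mutant libraries moved in opposite ways in the 2 organs. Each osspt5-1#12 root library was below each WT root library, and each osspt5-1#12 shoot library was above each WT shoot library. Of the rows tested, 11.6% separated this way in root and 23.9% in shoot. The share that did both was not counted. The mutant effect in root minus that in shoot was −3.10 on the log2(FPKM + 1) scale (SE 0.929, unadjusted p = 0.00682), and the limma adjusted p of 0.108 missed the threshold. This test used the same values that singled the gene out, so it is not separate support. The adjusted p ran from 0.026 to 0.235 over the settings tried. Mutant root library 3 had 23 reads of WOX11 and WT shoot library 2 had 5, the lowest of their organs. Without mutant root library 3 the value was −2.30 (limma adjusted p = 0.0945), and without WT shoot library 2 it was −2.72 (limma adjusted p = 0.213). Groups of 3 libraries were too small for a search for single outlying libraries.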

How the results depend on the processing

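Limma-voom, quantile normalization and the settings for CRL5 and QHB were chosen after the data were seen. Of 417 alternative values of single genes, 392 kept their direction and side of the threshold, 7 came to pass it, 9 missed it and 9 turned in direction. Many of them could not turn. For example, leaving out a shoot library, dropping the filter or adding a block leaves a fold change in root as it was. The count therefore overstates how stable the directions are. The root preference of CRL1, and of WOX11 in WT, passed under every setting tried. The tested genes called in shoot rose from 0 to 1 with limma-voom, and those called between mutant root and shoot from 1 to 3 of 5 with no filter. They ran from 0 to 1 with single libraries left out, for the mutant in root and for the difference between organs.

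Of all rows, 1774 were called for the mutant in root, 2406 in shoot and 893 for the difference between organs. A replicate block gave 566, 1189 and 233, fitting the root groups alone gave 312, and the difference gave 365 with limma-voom and 522 at a pseudocount of 0.1. With single libraries left out the counts ran from 727 to 4581 in root (the highest without mutant root library 1), from 1228 to 3607 in shoot and from 497 to 1926 for the difference. In shoot 1217 rows were higher and 1189 lower, against 790 and 1572 with median-ratio factors. The pairing by replicate number changed 1 call of these genes: QHB between mutant root and shoot (log2 fold change 1.15, limma adjusted p = 0.0577). QHB between WT root and shoot passed with a pseudocount of 0.1 (2.72, limma adjusted p = 0.0139).

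Directions that turned belonged to uncalled values. CRL4 between mutant root and shoot was 0.044 under quantile normalization, and −0.26 to 0.18 with single libraries left out. Leaving out single libraries gave −0.25 to 0.0096 for CRL1 and −0.0059 to 0.44 for CRL4 in root. It gave −0.16 to 0.54 for QHB in root, −0.0099 to 0.14 in shoot and −0.21 to 0.49 for their difference, and −0.40 to 1.14 for WOX11 between mutant root and shoot. The causes were not tested. CRL1, CRL5 and QHB rest on few reads, so small differences in them are not detectable at this depth.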
